A study of Mus musculus with 21 samples.

Results

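The genes described here are 9 genes of activin signalling: the ligand subunits Inhba and Inhbb, the type I receptors Acvr1b and Acvr1c, the type II receptors Acvr2a and Acvr2b, the secreted inhibitor Fst, the transducer Smad3 and the intracellular inhibitor Smad7. They were found by gene symbol in a count table of 24984 genes, all 9 were present, and all 9 passed the filter on low counts that left 16959 genes. They were chosen by their place in the pathway and selected on the log2 fold changes of bicuculline against water and of 4 h against 1 h of bicuculline in these data, so those values are given below as a description, without a p-value, and calls on them are counted once, only to set them beside the share of all genes called. Comparisons that the choice did not use are given with their tests.

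The assay was BrU-seq, which reads out nascent RNA: bromouridine is built into transcripts as they are made, and the transcripts that carry it are isolated and sequenced, so a value reflects RNA made within the labelling time. Cortical cultures of CD1 mice at day 17 in vitro were preincubated (30 min) with the solvent DMSO alone or with MM401 at 25 µM. MM401 is a peptidomimetic inhibitor that keeps WDR5 from binding MLL1, an enzyme that methylates histone H3 at lysine 4. They then received 40 µM bicuculline methiodide, a blocker of GABA-A receptors that raises network activity, or sterile water, and every culture had 2 mM bromouridine over its last 30 min. The 7 groups were DMSO with water at 4 h, DMSO with bicuculline at 1 h and at 4 h, MM401 with water at 1 h and at 4 h, and MM401 with bicuculline at 1 h and at 4 h, each with 3 biological replicates of mixed sex. DMSO with water at 1 h was not analysed here, so the 1 h response in DMSO was taken against water at 4 h, and there treatment and time differ together. The series title places the study among H3K4 methyltransferases in homeostatic plasticity. The comparisons address how pathway genes are transcribed when activity is raised, and whether that differs with MM401.

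Activins are dimers of inhibin beta subunits, and Inhba and Inhbb encode the subunits of activin A and activin B. A dimer binds a type II receptor kinase (Acvr2a, Acvr2b), which activates a type I receptor kinase (Acvr1b, Acvr1c), and the activated receptor phosphorylates Smad2 and Smad3, which enter the nucleus with Smad4. Follistatin, the product of Fst, traps the ligand outside the cell, and Smad7 blocks the activated receptor from inside. In forebrain neurons Inhba is known as a gene induced by synaptic activity, and activin is known for effects on dendritic spines and on the survival of neurons.

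The table holds counts over whole gene spans, introns included. Positions on mouse build mm10, as the authors' table gives them, were chr13:16011850-16031609 (plus strand) for Inhba, chr1:119415462-119422248 (minus) for Inhbb, chr15:101174071-101213684 (plus) for Acvr1b, chr2:58267452-58357758 (minus) for Acvr1c and chr2:48814108-48903264 (plus) for Acvr2a. They were chr9:119402177-119442148 (plus) for Acvr2b, chr13:114452261-114458951 (minus) for Fst and chr9:63646766-63757994 (minus) for Smad3. The spans run from 6691 bases for Fst to 111229 bases for Smad3. Whether strand was used in counting is not given in the sources used here, which matters most for Inhba: the noncoding gene B230303A05Rik on the opposite strand covers 11574 of its bases, or 58.6% of its span. Acvr1c shares 11.2% of its span with Gm13544, which had at most 5 counts in any library used, Acvr2a shares 440 bases with Orc4, and Acvr1b contains Mir6962, which had 0 counts. Inhbb, Acvr2b, Fst, Smad3 and Smad7 overlap no other gene of the table.

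The 2 ligand genes differed in opposite directions with bicuculline, and a link between sequence and direction was not tested. They differ in the sequence before their starts, and both upstream sequences are printed. They are the 250 bases before the RefSeq start on GRCm38.p6, 5′ to 3′, chr13:16011601-16011850 on the plus strand for Inhba and chr1:119422249-119422498 on the minus strand for Inhbb. Capitals mark the letters TATAAA.
Inhba: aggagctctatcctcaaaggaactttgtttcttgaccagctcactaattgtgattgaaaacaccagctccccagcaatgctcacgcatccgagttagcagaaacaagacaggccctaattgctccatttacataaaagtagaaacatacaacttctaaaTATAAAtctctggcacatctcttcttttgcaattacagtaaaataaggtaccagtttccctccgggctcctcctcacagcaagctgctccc
Inhbb: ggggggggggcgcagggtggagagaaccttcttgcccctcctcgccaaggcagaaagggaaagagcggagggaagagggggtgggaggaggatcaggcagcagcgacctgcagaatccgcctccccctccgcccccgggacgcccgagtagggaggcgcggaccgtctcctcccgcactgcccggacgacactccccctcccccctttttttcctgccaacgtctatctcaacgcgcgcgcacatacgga
The Inhba sequence had 43.2% G and C and 3 CpG dinucleotides, at the 19th percentile of GC content among 32851 promoters of the same length, whose medians were 52.4% and 6. TATAAA occurred once, with its first base 91 bases before the start, and 12.4% of all the promoters held it on either strand. Inhbb had 68% G and C and 21 CpG dinucleotides, and no TATAAA. Promoters of 7 of the 9 genes were matched, and of these Inhba alone had TATAAA and alone lacked the GC box GGGCGG, which 32.7% of all promoters held. The unmatched genes were Fst and Smad7, which like Inhba were higher with bicuculline at both times. Their promoters were not searched. The other 6 had 68% to 82% G and C, 21 to 49 CpG dinucleotides and 1 to 4 GC boxes each. Searched on both strands, none of the 7 held the cAMP response element TGACGTCA (1.55% of all promoters), the AP-1 site TGANTCA (6.75%) or the EGR site GCGTGGGCG (0.536%). The Smad-binding letters CAGAC occurred once each in Acvr2a and Acvr2b, against 42.2% of all promoters. The Inhba sequence held none of the other motifs, so its TATAAA overlapped no other match.

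Of the 21 libraries, 20 were used. Their totals ran from 49886348 to 87939384 counts (median 62996146), and they detected 18840 to 19277 genes. Replicate 3 of MM401 with water at 4 h had 316741 counts, 0.503% of that median, and was left out, so that this group has 2 libraries. It held 1 count of Inhba and 0 of Inhbb, Fst and Smad7. Values below are CPM, that is counts relative to a library total scaled by the trimmed mean of M-values (TMM), fold changes are log2 values of edgeR with their standard errors (SE), and called means a Benjamini-Hochberg adjusted p under 0.05 over all 16959 genes. Neuronal markers were high in every library (Map2 at 1409 to 2425 CPM and Snap25 at 610.0 to 1595 CPM), while Slc17a7, of glutamatergic neurons, stood at 10.2 to 19.6 CPM. Astrocyte markers were present too, with Slc1a3 at 259 to 590 CPM. The endothelial marker Cldn5 was at 0 in 16 of the 20 libraries and the fibroblast marker Lum in 5. The other endothelial markers were low but had counts in every library (Pecam1 at 0.739 to 1.56 CPM and Flt1 at 0.516 to 1.59 CPM). So did the other fibroblast markers (Col1a1 at 0.139 to 1.36 CPM, Col1a2 at 0.225 to 2.51 CPM and Dcn at 1.01 to 2.16 CPM).

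With bicuculline 3 of the 9 genes were at higher levels than in water at both times under both pretreatments: Inhba and Fst, which were highest at 4 h, and Smad7, which was highest at 1 h. Inhbb and Acvr2b had negative log2 differences in all 4 of these comparisons, with overlapping groups for Inhbb under MM401 at 4 h. Smad3 and Acvr1b differed by at most 0.15 (by up to -0.279 and -0.339 when libraries were scaled by their totals alone), Acvr1c had groups that did not overlap at 4 h in DMSO alone, and Acvr2a had small positive differences in 3 of the 4. The ranges of the 7 group means put the genes in order. The highest group mean was 13.8 times the lowest for Inhba, 4.49 times for Fst, 2.35 for Smad7, 1.75 for Inhbb, 1.63 for Acvr1c, 1.46 for Acvr2b, 1.28 for Acvr2a, 1.22 for Smad3 and 1.11 for Acvr1b.

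**Figure D1:**
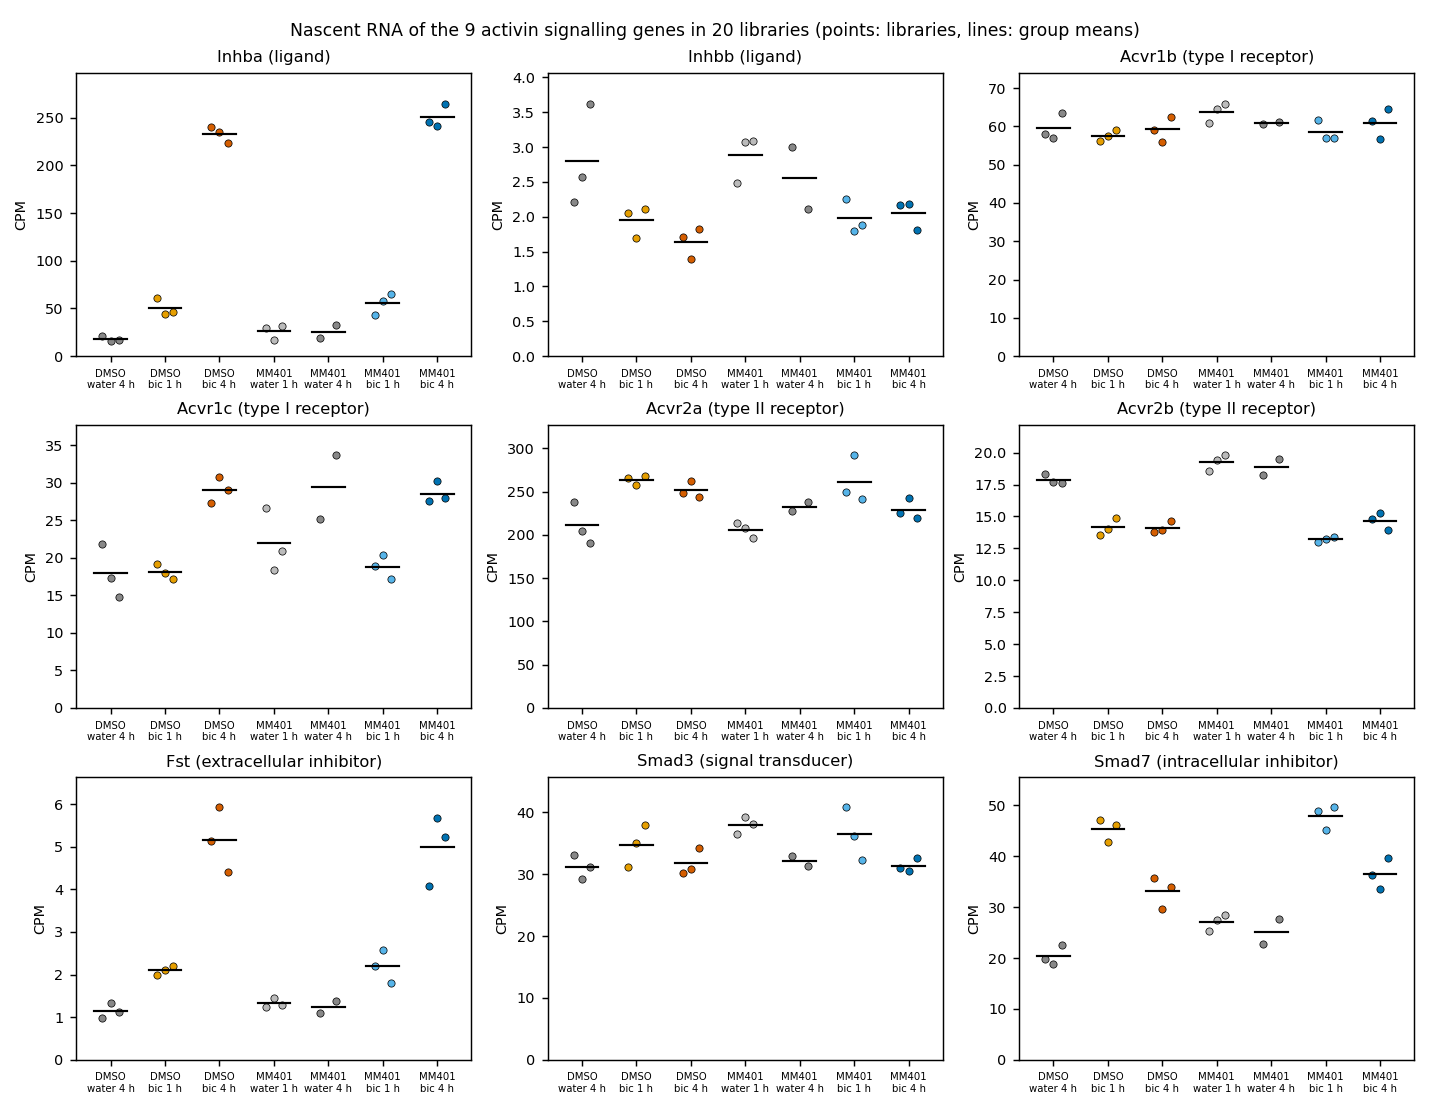
CPM of each of the 9 genes (vertical axes, from 0) in the 7 groups, with 1 point per library and a line at the group mean; bic stands for bicuculline. Inhba lies between 224 and 265 CPM in the 6 libraries with 4 h of bicuculline and at or below 65.5 CPM in all others, and Acvr1b stays between 56.1 and 66.0 CPM throughout.

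Inhba, the subunit of activin A, was at 20.9, 16.3 and 17.4 CPM in replicates 1, 2 and 3 of DMSO with water at 4 h. It was at 61.3, 43.9 and 45.9 CPM after 1 h of bicuculline in DMSO, and at 240, 235 and 224 CPM after 4 h. Under MM401 its levels were 29.8, 16.6 and 32.0 CPM in water at 1 h and 18.5 and 32.4 CPM in water at 4 h. Bicuculline with MM401 gave 43.2, 57.9 and 65.5 CPM at 1 h and 245, 241 and 265 CPM at 4 h. No library with bicuculline fell within the range of any water group, and no 4 h library within that of a 1 h library. In DMSO the log2 difference from water was 1.47 ± 0.25 at 1 h and 3.69 ± 0.26 at 4 h, and with MM401 it was 1.09 ± 0.25 and 3.30 ± 0.31. Between 1 h and 4 h of bicuculline it was 2.21 ± 0.25 in DMSO and 2.17 ± 0.25 with MM401. Ranked by log2 fold change from the top of the 16959 genes, Inhba was 246th at 1 h and 10th at 4 h in DMSO, and 374th and 20th with MM401. In the order of group means, the 2 groups with 4 h of bicuculline came first (250.4 ± 12.8 CPM with MM401 and 233 ± 8.42 in DMSO, SD, n = 3 each), then the 1 h groups (55.5 ± 11.4 and 50.4 ± 9.48), which overlapped each other, and then the 3 water groups, which overlapped as well. The coefficient of variation between replicates was 13.5% in DMSO with water, 31.8% and 38.7% in the water groups with MM401, 18.8% and 20.4% at 1 h of bicuculline and 3.61% and 5.11% at 4 h.

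The opposite-strand gene B230303A05Rik went the other way. Its mean was 120 ± 21.8 CPM in DMSO with water, 106 ± 3.28 after 1 h of bicuculline and 66.0 ± 9.60 after 4 h (SD, n = 3), and with MM401 it was 120 ± 5.85 (n = 2) in water and 59.8 ± 5.195 (n = 3) in bicuculline at 4 h. At 4 h it fell by 0.86 ± 0.12 on the log2 scale in DMSO (edgeR adjusted p = 8.77e-06) and by 1.01 ± 0.13 with MM401 (6.41e-06). At 1 h its differences of -0.17 ± 0.12 and -0.15 ± 0.12 were not called. Per kb of span, Inhba stood at 1.62 ± 0.16 times B230303A05Rik in DMSO with water and at 38.1 ± 5.66 times it after 4 h of bicuculline. How reads of the shared stretch were assigned was not tested.

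**Figure D2:**
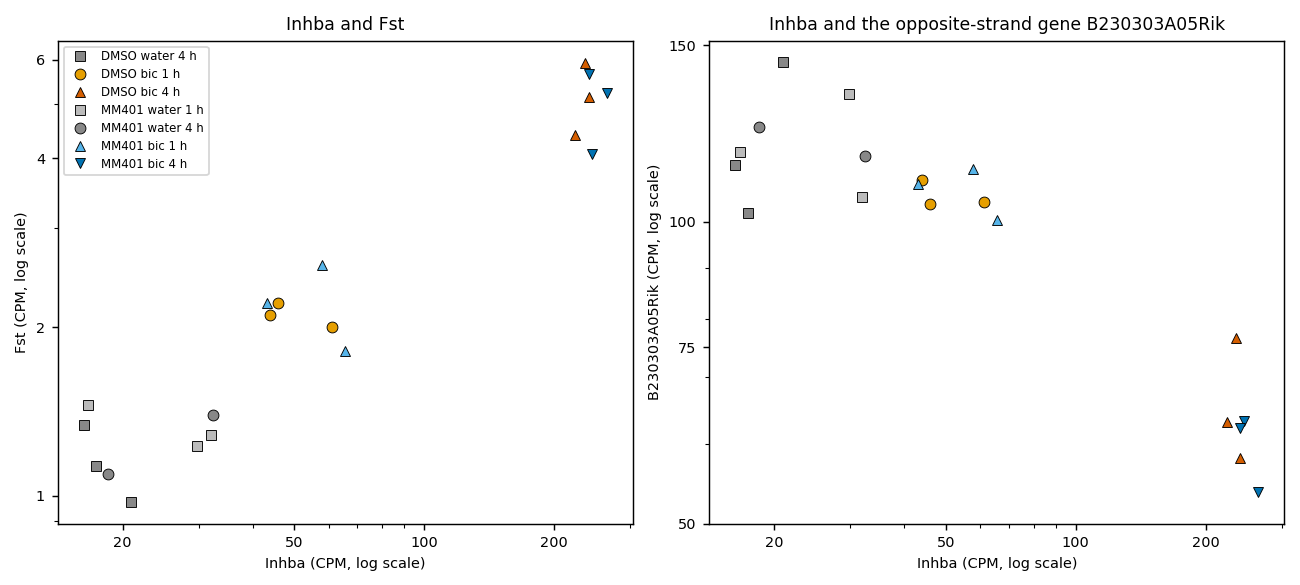
CPM of Fst (left) and of the opposite-strand gene B230303A05Rik (right) against CPM of Inhba, both axes on a log scale, with 1 point per library and 1 symbol and colour per group. Fst and Inhba are both lowest in water and highest after 4 h of bicuculline, whereas B230303A05Rik is lowest in the libraries where Inhba is highest.

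Inhbb, the subunit of activin B, had low counts (95 to 273 per library) and the opposite direction. In DMSO it was at 2.21, 2.57 and 3.62 CPM in water, at 2.06, 1.70 and 2.11 CPM after 1 h of bicuculline and at 1.72, 1.39 and 1.83 CPM after 4 h. The MM401 libraries had 2.49, 3.07 and 3.09 CPM in water at 1 h and 2.999 and 2.114 CPM in water at 4 h, and 2.25, 1.80 and 1.89 CPM with bicuculline at 1 h and 2.16, 2.19 and 1.81 CPM at 4 h. Water and bicuculline did not overlap in 3 of these 4 comparisons, and did overlap with MM401 at 4 h. The log2 differences were -0.53 ± 0.18 and -0.77 ± 0.18 at 1 h and 4 h in DMSO, and -0.55 ± 0.18 and -0.32 ± 0.20 with MM401. Without replicate 3 of DMSO with water, its highest library, the 1 h difference in DMSO was -0.288, and without replicate 2 of bicuculline at 1 h it was -0.435. With MM401 the 4 h difference was -0.0669 without replicate 1 of the water group and -0.581 without its replicate 2. The 1 h difference with MM401 ran from -0.647 to -0.49 when 1 library was left out. Per kb of span the ratio of Inhba to Inhbb was 2.36 ± 0.82 in DMSO with water, 8.87 ± 1.37 after 1 h of bicuculline and 49.5 ± 8.14 after 4 h (SD, n = 3). With MM401 it was 3.69 ± 2.23 in water at 4 h (n = 2) and 42.4 ± 6.91 in bicuculline at 4 h (n = 3), so the ranges of water and bicuculline stood far apart under either pretreatment.

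Fst, which encodes the ligand trap follistatin, followed the order of Inhba at a lower level, with 53 to 405 counts per library. In DMSO it was at 0.976, 1.34 and 1.13 CPM in water, at 2.00, 2.10 and 2.21 CPM after 1 h of bicuculline and at 5.15, 5.93 and 4.398 CPM after 4 h. Under MM401 Fst was at 1.23, 1.45 and 1.29 CPM in water at 1 h and 1.09 and 1.39 CPM in water at 4 h, and at 2.20, 2.58 and 1.81 CPM with bicuculline at 1 h and 4.07, 5.67 and 5.23 CPM at 4 h. As with Inhba, water, 1 h and 4 h of bicuculline gave 3 sets of libraries that did not overlap, and within each set the DMSO and MM401 libraries of Fst overlapped. The log2 differences from water were 0.86 ± 0.17 at 1 h and 2.15 ± 0.17 at 4 h in DMSO, and 0.73 ± 0.17 and 2.00 ± 0.20 with MM401. Across the 7 group means of log2 CPM, Pearson's r of Fst with Inhba was 0.998, a description over 7 groups that share their libraries and depth. The difference in Inhba was the larger: per kb of span Inhba stood at 5.53 ± 1.60 times Fst in DMSO with water, 8.16 ± 1.91 after 1 h of bicuculline and 15.5 ± 1.91 after 4 h.

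Smad7 (chr18:75367364-75395934, plus strand), the inhibitor that acts at the receptor, was highest at 1 h. In DMSO it was at 19.7, 18.8 and 22.7 CPM in water, at 47.2, 42.8 and 46.1 CPM after 1 h of bicuculline and at 35.7, 29.7 and 34.0 CPM after 4 h. Smad7 under MM401 was at 25.4, 27.5 and 28.4 CPM in water at 1 h and 22.8 and 27.6 CPM in water at 4 h, and at 48.8, 45.3 and 49.6 CPM with bicuculline at 1 h and 36.2, 33.7 and 39.6 CPM at 4 h. Every 1 h library with bicuculline was above every 4 h library, and every 4 h library above every water library. The log2 differences from water were 1.15 ± 0.087 and 0.70 ± 0.087 at 1 h and 4 h in DMSO, and 0.82 ± 0.086 and 0.53 ± 0.098 with MM401. From 1 h to 4 h the difference was -0.45 ± 0.085 in DMSO and -0.39 ± 0.085 with MM401.

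Smad3, the transducer that Smad7 opposes, did not share this course. Its libraries ranged from 29.2 to 40.8 CPM, and the bicuculline and water libraries overlapped in all 4 comparisons, with log2 differences from -0.062 ± 0.080 (MM401, 1 h) to 0.15 ± 0.080 (DMSO, 1 h). Under MM401 Smad3 was at 40.8, 36.2 and 32.3 CPM at 1 h of bicuculline and at 30.9, 30.5 and 32.7 CPM at 4 h, a log2 difference of -0.21 ± 0.081 that was -0.126 without replicate 1 and -0.324 without replicate 3 of the 1 h group. Per kb of span the ratio of Smad7 to Smad3 was 2.55 ± 0.26 in DMSO with water, 5.13 ± 0.67 after 1 h of bicuculline and 4.07 ± 0.47 after 4 h (SD, n = 3).

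The type II receptors differed in direction. Acvr2b was at 18.3, 17.7 and 17.6 CPM in DMSO with water, at 13.6, 14.0 and 14.9 CPM after 1 h of bicuculline and at 13.8, 13.9 and 14.7 CPM after 4 h. With MM401 it was at 18.5 to 19.8 CPM in the 5 water libraries and at 13.01 to 15.3 CPM in the 6 with bicuculline, so that all water libraries lay above all bicuculline libraries. The log2 differences were -0.34 ± 0.063 at both times in DMSO, and -0.54 ± 0.064 and -0.36 ± 0.070 with MM401. Acvr2a was at 238, 205 and 191 CPM in DMSO with water, at 266, 258 and 268 CPM after 1 h of bicuculline and at 249, 262 and 244 CPM after 4 h. Its log2 differences were 0.32 ± 0.076 and 0.25 ± 0.076 in DMSO and 0.34 ± 0.076 and -0.022 ± 0.085 with MM401, where water at 4 h (227 and 238 CPM) overlapped bicuculline at 4 h (226, 242 and 219 CPM). The difference at 4 h in DMSO was -0.0141 when libraries were scaled by their totals alone, and 0.158 without replicate 3 of DMSO with water. Per kb of span the ratio of Acvr2a to Acvr2b was 5.28 ± 0.49 in DMSO with water and 8.37 ± 0.38 and 7.997 ± 0.50 after 1 h and 4 h of bicuculline, and the water libraries lay below all of those with bicuculline, whose ranges at 1 h and 4 h overlapped.

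Of the type I receptors, Acvr1b (ALK4) was the steadiest of the 9 genes, between 56.1 and 66.0 CPM in all 20 libraries. Its log2 differences between bicuculline and water lay between -0.12 ± 0.060 and 0.00010 ± 0.067. Acvr1c (ALK7) was at 21.9, 17.3 and 14.8 CPM in DMSO with water, at 19.2, 17.97 and 17.1 CPM after 1 h of bicuculline and at 27.3, 30.7 and 29.0 CPM after 4 h. In DMSO its log2 difference was 0.011 ± 0.14 at 1 h and 0.69 ± 0.14 at 4 h. With MM401 it was at 26.6, 18.4 and 20.9 CPM in water at 1 h and at 25.1 and 33.6 CPM in water at 4 h, against 18.9, 20.4 and 17.2 CPM and 27.6, 30.2 and 27.9 CPM with bicuculline at the same times, and the log2 differences were -0.22 ± 0.14 and -0.042 ± 0.15. The 1 h value was -0.0644 without replicate 1 of its water group and -0.434 under scaling by library totals. Per kb of span Acvr1b stood at 7.78 ± 1.88 times Acvr1c in DMSO with water and 4.67 ± 0.44 times it after 4 h of bicuculline.

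**Figure D3:**
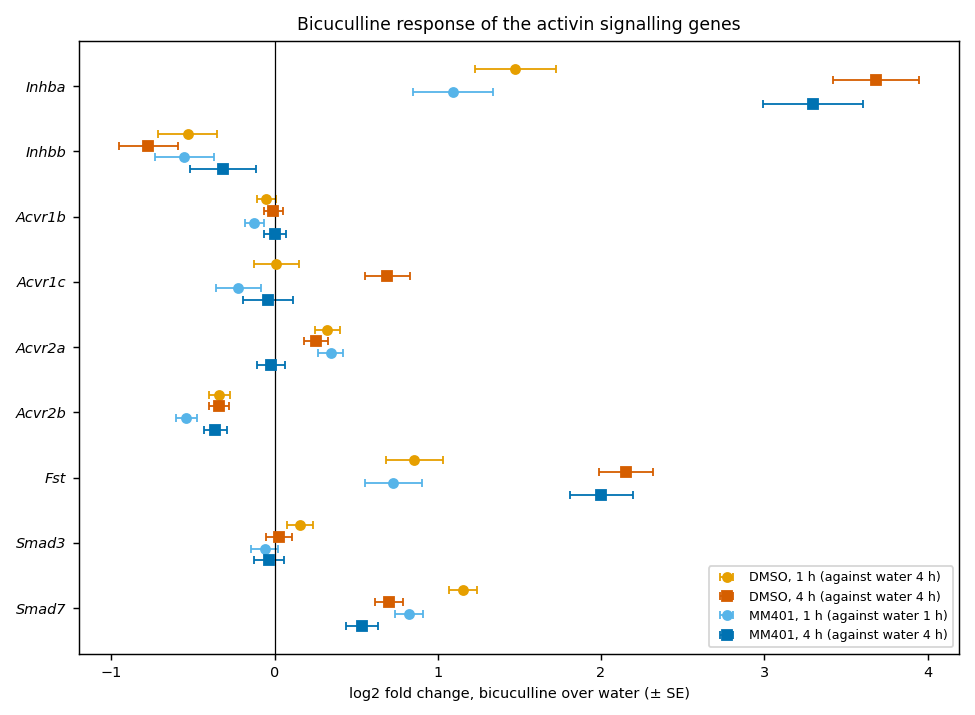
Log2 fold change of bicuculline over water (horizontal axis) with its SE for each of the 9 genes, in DMSO (orange) and with MM401 (blue), at 1 h (circles) and 4 h (squares). Inhba and Fst lie furthest right at 4 h and Smad7 is further right at 1 h than at 4 h, while Inhbb and Acvr2b lie left of 0.

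The background of these comparisons was high, with 6769 to 8344 genes called in each comparison with water. At 1 h in DMSO, 6 of the 9 genes were called (4 higher, 2 lower) against 44.6% of all genes tested, and 6 did not overlap between groups against 47.4%. At 4 h in DMSO 7 were called (5 higher, 2 lower) against 49.2%, and 7 did not overlap against 52.5%. With MM401, 6 were called at 1 h (4 higher, 2 lower) against 39.9%, and 6 did not overlap against 51.1%. At 4 h with MM401 4 were called (3 higher, 1 lower) against 44.6%, and 4 did not overlap against 66.6%, here with 3 against 2 libraries. For 4 h against 1 h of bicuculline, 4 were called in DMSO against 34.2% and 5 with MM401 against 33.6%, and 4 and 5 did not overlap against 43.3% and 45.1%. The choice of the genes used these contrasts, and nothing is read from their counts. The median log2 fold change of the 9 genes was 0.15 at 1 h and 0.25 at 4 h in DMSO, beside -0.038 and -0.024 over all genes tested. With MM401 the medians were -0.062 and -0.022, beside -0.0018 and 0.016. The 2 comparisons within DMSO share their water libraries. Scaling by library totals alone moved the median of all genes by -0.19, -0.28 and -0.21 at 1 h and 4 h in DMSO and at 1 h with MM401, and the share of called genes that were higher went from 44.9% to 21.2%, from 48.1% to 18.8% and from 45.4% to 16.3%. With MM401 at 4 h that share went from 51.5% to 40.3%, and for 4 h against 1 h of bicuculline it went from 55.7% to 39.2% in DMSO and from 52.3% to 65.0% with MM401. Under that scaling the counts of the 9 genes became 4 higher and 3 lower at 1 h and 4 higher and 4 lower at 4 h in DMSO, and 4 higher and 5 lower with MM401 at 1 h. The log2 differences of Acvr1b were then -0.244, -0.284 and -0.339 in these 3 comparisons, and those of Smad3 were -0.0356, -0.244 and -0.279.

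Genes of the rest of the pathway were taken from a list of 47, of which 41 passed the filter. The lists were chosen with earlier results of these data known, and genes were named below by the values they took here. Their calls and adjusted p-values are therefore a description and not independent evidence. The 9 targets of Smad signalling are given first. At 1 h in DMSO 8 of 9 rose and none fell, beside 3396 of all 16959 genes called higher, and at 4 h 1 of 9 rose, beside 4014 (23.7%). With MM401, 8 of 9 rose at 1 h (18.1% of all genes) and 3 of 9 at 4 h (23.0%). The median log2 fold change of these targets was 0.82 and 0.051 at 1 h and 4 h in DMSO and 0.58 and 0.41 with MM401. From 1 h to 4 h of bicuculline, 5 of the 9 fell in DMSO and none rose (15.2% of all genes lower), and with MM401 5 fell and 1 rose (16.0% lower). The count of 8 at 1 h was 5 in DMSO under scaling by library totals. The MM401 count was 5 under that scaling, 5 with the shallow library kept, and 5 without replicate 2 or replicate 3 of MM401 with bicuculline at 1 h or replicate 2 of MM401 with water at 1 h.

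Ccn2, a matricellular protein gene, had a mean of 1.26 CPM in DMSO with water and rose to 3.86 CPM at 1 h, by 1.64 ± 0.18 on the log2 scale (edgeR adjusted p = 2.76e-07), and was at 1.38 CPM at 4 h (0.14 ± 0.20, adjusted p = 0.599). Pmepa1, an inhibitor of the pathway that is itself a target, went from 75.3 to 177 CPM at 1 h (1.23 ± 0.072, adjusted p = 8.71e-12) and was at 78.0 CPM at 4 h (0.051 ± 0.071, adjusted p = 0.584). Both of these targets thus had means close to those in water at 4 h, the time at which Inhba was highest. With MM401 at 1 h Ccn2 rose by 1.03 ± 0.18 (7.87e-05) and Pmepa1 by 0.75 ± 0.071 (2.19e-08), and at 4 h their differences were 0.13 ± 0.22 and 0.051 ± 0.080. Id2, a helix-loop-helix inhibitor better known as a target of BMP signalling, rose at 1 h by 0.56 ± 0.18 in DMSO (0.0200) and by 0.87 ± 0.19 with MM401 (0.00130). At 4 h Id2 differed by 0.39 ± 0.18 in DMSO (0.0869) and rose by 1.07 ± 0.21 with MM401 (6.84e-04), and the interactions were not called (edgeR adjusted p = 0.799 at 1 h and 0.282 at 4 h). The 1 h value in DMSO was 0.268 and not called without replicate 1 of bicuculline at 1 h. The single target that rose at 4 h in DMSO was Cdkn1a, a cell cycle inhibitor (0.75 ± 0.11, edgeR adjusted p = 6.06e-06), and with MM401 at 4 h they were Cdkn1a, Id2 and Tgfbi, names given after their values were seen. The count of 1 in DMSO was 2 with DESeq2, under scaling by library totals and without replicate 1 or 2 of bicuculline at 1 h, and Id2 was called with DESeq2 and without either of these libraries. The count of 3 with MM401 was 2 without either library of its water group. Cdkn1a and Id2 are also known to respond to other pathways.

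Among the other ligands, 6 of 11 passed the filter. Tgfb2, of the transforming growth factor beta branch, rose from 27.2 to 64.6 CPM at 4 h in DMSO, by 1.25 ± 0.086 (edgeR adjusted p = 1.08e-10), and by 1.07 ± 0.098 with MM401 (2.04e-08). Mstn, encoding myostatin, a ligand of the same type II receptors, rose by 0.80 ± 0.25 in DMSO (0.0118) and by 1.76 ± 0.31 with MM401 (1.02e-04) at 4 h, all at under 1 CPM (0.276 to 0.942 CPM in group means). In DMSO at 4 h the call of Mstn was lost in 4 of 26 alternatives: under scaling by library totals (0.522, edgeR adjusted p = 0.0799) and without replicate 1 or 2 of bicuculline at 4 h or replicate 3 of water. Ligands called at 4 h were 3 higher and 1 lower in DMSO and 4 higher and 1 lower with MM401, and the gene that fell in both was Inha, the alpha subunit that turns activins into inhibins (-0.78 ± 0.14 in DMSO, edgeR adjusted p = 7.45e-05, and -0.78 ± 0.16 with MM401, 3.32e-04), named after its values were seen.

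Of the inhibitors and adaptors, 10 of 10 passed the filter, and 4 rose and 3 fell at 4 h in DMSO. Fstl3, a second ligand trap related to follistatin, fell by 1.15 ± 0.32 at 1 h (edgeR adjusted p = 0.00566) and by 2.00 ± 0.35 at 4 h in DMSO (6.58e-05) and by 1.27 ± 0.41 at 4 h with MM401 (0.0148). At 1 h with MM401 the difference of -0.76 ± 0.33 was not called (0.0688), the 4 h call with MM401 was lost without replicate 1 of its water group (-1.16, 0.094), and the group means of Fstl3 were only 0.106 to 0.428 CPM. Tgif1, a corepressor of Smad2 and Smad3, rose by 0.90 ± 0.13 at 4 h in DMSO (6.29e-06). Receptors and co-receptors (10 of 11 passed) had 3 higher and 1 lower at 1 h and 5 higher at 4 h in DMSO, and 5 higher at each time with MM401. Of the other Smads (6 of 6 passed), 1 was higher and 2 lower at 1 h under either pretreatment, and 3 were higher at 4 h. Over all 41 genes, 21 were higher and 6 lower at 1 h in DMSO, 16 and 4 at 4 h, 22 and 4 with MM401 at 1 h, and 20 and 3 with MM401 at 4 h. That is 65.9%, 48.8%, 63.4% and 56.1% of them, beside 44.6%, 49.2%, 39.9% and 44.6% of all genes tested. The count of 23 with MM401 at 4 h was 14 when replicate 1 of the 4 h water group with MM401 was left out, so that its 1 remaining library is assumed to vary like the other groups, and the count of 26 with MM401 at 1 h was 17 under scaling by library totals.

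**Figure D4:**
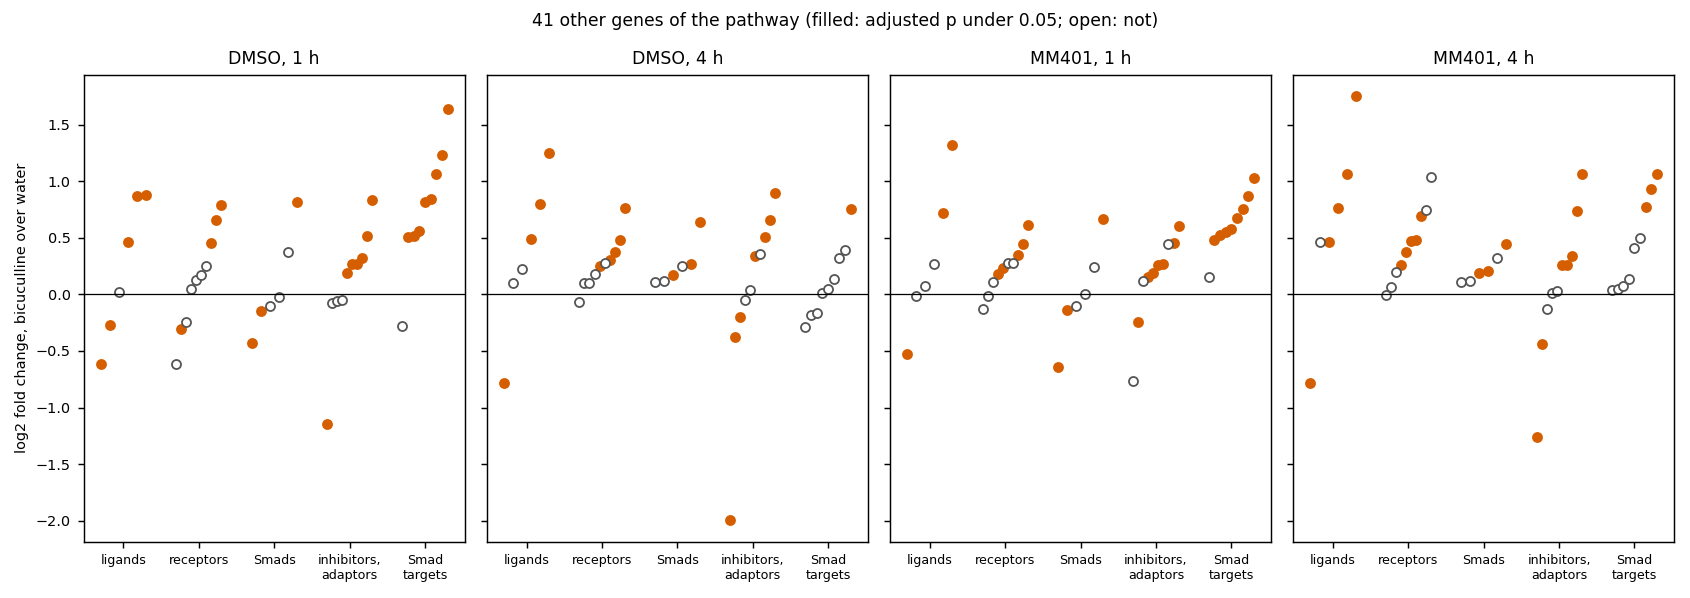
Log2 fold change of bicuculline over water (vertical axis) of the 41 tested other genes of the pathway by list, in the 4 comparisons; filled points were called and open points were not. The targets of Smad signalling lie mostly above 0 and filled at 1 h (8 of 9 under either pretreatment) and are mostly open at 4 h.

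Some cell type markers were called with bicuculline as well, against a high background. Of all genes tested, 44.6% and 49.2% were called at 1 h and 4 h in DMSO, and 39.9% and 44.6% with MM401. Whether markers moved more than other genes was not tested, and nothing specific to cell types is read from their counts. The summed CPM of the 6 neuronal markers was 2731 to 3149 in DMSO with water, 3785 to 4050 after 1 h of bicuculline and 4574 to 4734 after 4 h, and at 4 h 4 of the 6 rose and 1, Rbfox3, fell. The 4 astrocyte markers summed to 423 to 633 CPM in water, 689 to 799 at 1 h and 542 to 621 at 4 h in DMSO, and 2 rose and 1 fell at 1 h. With MM401, 3 of the 4 astrocyte markers rose at 1 h and 2 at 4 h. Of the 4 oligodendrocyte lineage markers 2 rose in 3 of the 4 comparisons with water and 3 with MM401 at 4 h, and their sum was 126 to 146 CPM in DMSO with water and 159 to 170.0 CPM after 4 h of bicuculline. Of 3 tested microglial markers, 1 rose at 4 h in DMSO and 2 with MM401. Of 3 tested fibroblast markers, Dcn alone rose in the comparisons with water, with MM401 at 1 h (0.63 ± 0.19). The microglial sum was at most 33.2 CPM over all 20 libraries, the endothelial sum at most 3.01 CPM and the fibroblast sum at most 5.24 CPM. The part of these shifts in the values of the 9 genes was not tested. In such bulk libraries fewer cells of a type and less nascent RNA per cell cannot be told apart.

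MM401 against DMSO was not used to choose the genes, and none of the 9 was called in any of the 3 conditions by edgeR. In water at 4 h, 0 of 9 were called against 0.0826% of all genes tested, and 2 of 9 had an unadjusted p under 0.05, beside 2194 of 16959 genes. Acvr1c had the largest difference: 25.1 and 33.6 CPM with MM401, against 21.9, 17.3 and 14.8 CPM in DMSO, groups that did not overlap, as was so for 26.0% of all genes. Its log2 difference was 0.71 ± 0.15 (95% interval 0.39 to 1.03, edgeR adjusted p = 0.0919). DESeq2 called it, at an adjusted p of 0.00306, and so did the fits without replicate 1 of DMSO with water (0.869, 0.00305) and without replicate 1 of the 1 h water group with MM401 (0.710, 0.0449), while over all 26 alternatives the adjusted p ran from 0.00305 to 0.699. Smad7 differed by 0.31 ± 0.097 (95% interval 0.10 to 0.51, adjusted p = 0.195) and Inhba by 0.49 ± 0.28 (-0.11 to 1.09, adjusted p = 0.460). Both differences rested on the 2 MM401 libraries: without replicate 2 they were 0.17 for Smad7 and 0.0391 for Inhba, and without replicate 1 they were 0.44 and 0.838. Without replicate 1 of DMSO with water 1272 genes were called in this comparison, against 14 with it.

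The pretreatments were also compared in bicuculline. At 1 h, 0 of 9 were called against 0.00590% of all genes, with adjusted p-values of 0.999, and 0 of 9 had an unadjusted p under 0.05 (540 of all genes). Groups did not overlap for 1 of the 9 genes against 7.15% of all genes. The log2 differences lay between -0.096 and 0.14, and that of Inhba was 0.14 ± 0.24 (95% interval -0.37 to 0.66). At 4 h, 0 of 9 were called against 0% of all genes, 0 of 9 had an unadjusted p under 0.05 (1309 of all genes), and the lowest adjusted p was 0.649. Inhba differed by 0.10 ± 0.23 (-0.40 to 0.60, adjusted p = 0.942), by 0.0599 without replicate 3 of the MM401 group and by 0.216 under scaling by library totals, and the 3 MM401 libraries (241 to 265 CPM) lay above the 3 DMSO libraries (224 to 240 CPM). It was 1 of 2 of the 9 genes without overlap, against 17.5% of all genes. The intervals of all 9 genes lay within -0.37 to 0.66 at 1 h and -0.40 to 0.70 at 4 h, and these are the differences that the data leave possible.

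**Figure D5:**
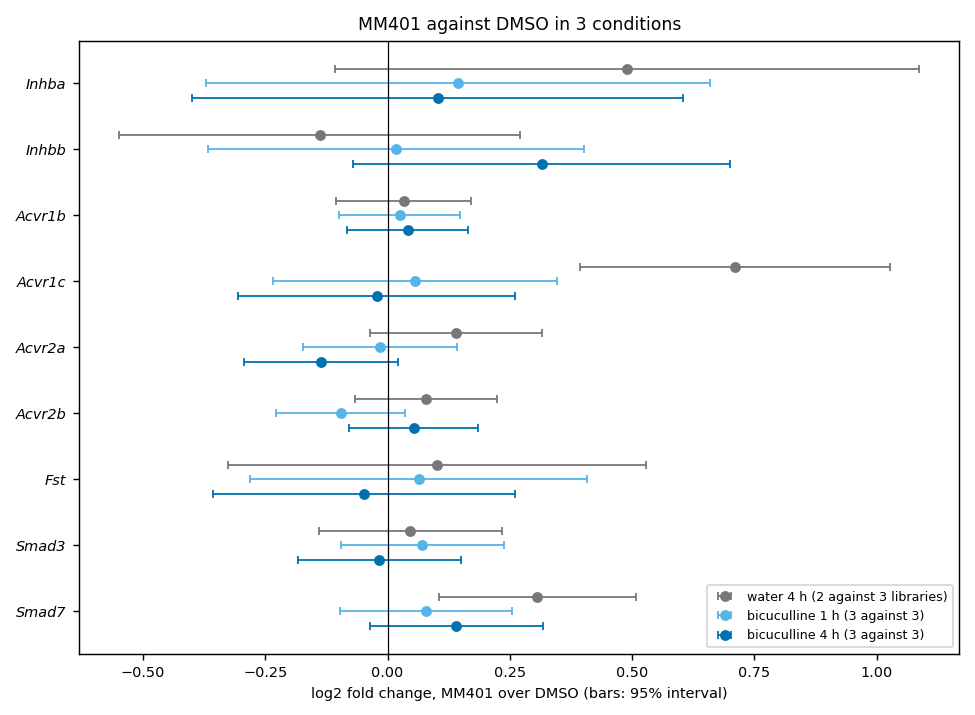
Log2 fold change of MM401 over DMSO (horizontal axis) with its 95% interval for each of the 9 genes, in water at 4 h (grey), bicuculline at 1 h (light blue) and bicuculline at 4 h (dark blue). Only the intervals of Acvr1c and Smad7 in water exclude 0, and no gene was called after adjustment.

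The difference between the bicuculline responses under MM401 and under DMSO was tested directly. The choice of the genes did not use this difference, but it used responses that the difference is made of. These tests are therefore not independent of that choice. At 4 h, with each response taken against its own water group, 0 of 9 genes were called (0% of all genes by edgeR), and 2 had an unadjusted p under 0.05 (2552 of all genes). Acvr1c differed by -0.73 ± 0.20 (95% interval -1.16 to -0.31, edgeR adjusted p = 0.229), Acvr2a by -0.28 ± 0.11 (adjusted p = 0.278) and Inhba by -0.39 ± 0.36 (-1.17 to 0.39, adjusted p = 0.628). Without replicate 1 of DMSO with water, Acvr1c (-0.891, adjusted p = 0.00940) and Acvr2a (-0.370, 0.0270) were called, among 1551 genes in all, and over the alternatives their adjusted p ran to 0.588 and 0.603, with Acvr2a at -0.0842 under scaling by library totals. At 1 h, with water at 4 h as the reference of both responses, 0 of 9 were called (0% of all genes), and 1, Acvr1c, had an unadjusted p under 0.05 (1326 of all genes), at -0.65 ± 0.21 (adjusted p = 0.482). Inhba differed by -0.35 ± 0.37 (adjusted p = 0.845). The water groups of these tests hold 2 and 3 libraries, and the interactions share them with the comparisons above.

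Time in water alone was compared with MM401, at 4 h against 1 h. None of the 9 genes was called (0.867% of all genes), 2 did not overlap (31.9% of all genes), and 3 had an unadjusted p under 0.05 (1699 of all genes). These were Acvr1c (0.42 ± 0.15, adjusted p = 0.278), Smad3 (-0.24 ± 0.090, 0.298) and Acvr2a (0.18 ± 0.085, 0.492). The value of Acvr1c was 0.204 without replicate 2 and 0.613 without replicate 1 of the 4 h group, which has 2 libraries. Inhba differed by -0.037 ± 0.28 (95% interval -0.63 to 0.56, adjusted p = 0.992), beside the log2 difference of 2.17 between the same times in bicuculline.

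Genes whose course was most like that of Inhba were sought among 1032 genes, the 9 described here left out, whose 7 group means also spanned at least 1 on the log2 scale. For Inhba the highest Pearson's r over the 7 group means among these were those of Fam126b (0.993), Gclc (0.992), Dennd5a (0.990), Pabpc4 (0.990) and Casc3 (0.990). For Fst they were those of Fam126b (0.997), Gclc (0.996), Dennd5a (0.994), Ptp4a2 (0.993) and Kcna4 (0.992), so that 3 genes stood in both lists. For Smad7 they were those of Dlk1 (0.993), Rgs13 (0.992), Cdr2 (0.990), Mafk (0.988) and Maff (0.986), none of which was in the other lists. Maff and Mafk encode small Maf transcription factors. Among the 9 genes, Inhbb was most like Acvr2b (0.904), and its r was lowest with Acvr2a (-0.854), followed by Fst (-0.828) and Inhba (-0.815). The size of a course does not enter r. The genes listed for Inhba spanned 1.01 to 1.38 on the log2 scale, against 3.78 for the group mean CPM of Inhba. Those listed for Fst spanned 1.01 to 1.21, against 2.17 for Fst. All values of r are descriptions over 7 groups that share libraries and depth.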

How the data were processed

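Nascent RNA of 21 libraries in 7 groups was analysed from raw read counts per gene that the authors deposited in 1 table (whole gene span as the feature, mouse build mm10, per the file headers). The submitters' processing notes name Bowtie2, UMI-tools, featureCounts, DESeq2 and deepTools. Their roles and versions, and the use of strand, are not given in the sources used here. Genes listed at more than 1 position (412) kept their summed count. In R 4.3.3, edgeR 4.0.16 (limma 3.58.1) kept genes by filterByExpr (minimum count 10, minimum total 15), scaled by TMM and fitted 20 libraries with 1 mean per group by the robust quasi-likelihood method, without a block. P-values were adjusted by Benjamini-Hochberg over 16959 genes and called under 0.05. The depth was 49886348 to 87939384 counts per library, with a common biological coefficient of variation of 8.77%. Intervals are at 95%.

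The 9 genes, the pathway lists, the marker lists and the tests were chosen with earlier results of these data known. Of the pathway lists, up to 4 called genes with the largest fold change were named per comparison of bicuculline with water. Likeness was Pearson's r over group means of log2(CPM + 0.5), 5 genes for each gene spanning at least 1, leaving out unnamed predicted genes and small RNA genes. Motifs were searched in RefSeq promoters of GRCm38.p6.

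Counts of 16959 genes were simulated for bicuculline against water at 4 h in DMSO. Of 67, 67 and 65 genes changed by 0.5, 1 and 2 on the log2 scale, 71.6%, 94.0% and 96.9% were called, and 0.571% of calls were false. Genes outside the changed set were left unchanged, and every gene was given the same dispersion. In the real comparison 49.2% of genes were called, so the simulated shares do not carry over to the calls reported here. No pair of replicates agreed within sampling noise (chi-square per degree of freedom 6.40 to 82.7 over 19 pairs). The labels do not say what a replicate number stands for. Of 45 correlations of same-numbered deviations between groups, 24 were over 0.1 (median 0.102), and of the pairs of groups compared only MM401 and DMSO in bicuculline at 4 h had all 3 over 0.1 (0.150, 0.107 and 0.172). There the replicate block changed no call of the 9 genes. Alternatives were DESeq2 1.42.0, its size factors, library totals, no filter, the replicate block, the shallow library kept, and each library left out. The values of 1 gene of the pathway lists are not reported here.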

Additional observations from a re-analysis of the deposited data

How the results depend on the processing

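Across 26 alternatives the 108 log2 fold changes of the 9 genes gave 2808 values, of which 121 changed sign (83 in fits without 1 library and 20 under scaling by library totals; none of these was larger than 0.39 to begin with) and 45 changed their call. Acvr2a at 4 h in DMSO changed sign under library totals (-0.0141). Leaving out 1 library gave Inhba -0.00765 to 0.309 for MM401 against DMSO in bicuculline at 1 h, -0.488 to 0.311 for water at 4 h against 1 h, -0.736 to 0.0626 for the interaction at 4 h and -0.71 to 0.0892 for that at 1 h. With the replicate block Inhba for water at 4 h against 1 h was 0.0183, and the block moved 1 of the 9 genes across the threshold, Acvr2a for 4 h against 1 h of bicuculline with MM401 (-0.187), and no other. Of the 9 genes, those called for MM401 against DMSO in water were 1 with DESeq2 and 0 to 1 without 1 library, and for the interaction at 4 h 0 to 2.

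Over all genes, keeping the shallow library gave 3745 calls in place of 5805 (4 h against 1 h of bicuculline, DMSO), 3646 in place of 5691 (MM401), 0 in place of 14 (MM401 against DMSO, water) and 19 in place of 147 (water 4 h against 1 h). DESeq2 gave 162 for MM401 against DMSO in water, 14 in place of 1 and 7 in place of 0 in bicuculline at 1 h and 4 h, 275 for water 4 h against 1 h, and 436 and 5 in place of 0 for the interactions at 4 h and 1 h. Library totals gave 4 for MM401 against DMSO in water, and the replicate block 4 at 1 h of bicuculline. Without 1 library these counts ran from 0 to 1272, 0 to 4, 14 to 280, 0 to 1551 and 0 to 97 (MM401 against DMSO in water and at 1 h, water over time, interactions at 4 h and 1 h), with the highest without replicate 1 of DMSO with water except at 1 h of bicuculline (replicate 3), the 0 in water without replicate 2 or 3 of that group or replicate 2 of the 4 h water group under MM401, and the 14 without replicate 1 of the latter. The cause was not tested. Counts of Fst and Inhbb, at most 405 and 273 per library, limit their precision.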
